A study of Canis lupus familiaris with 6 samples.

Results

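In RasV12-transformed kidney epithelial cells sorted from culture with normal cells, the transcripts of urokinase (PLAU), of its receptor (PLAUR) and of the serpin maspin (SERPINB5) were lower than in the same cells grown alone, by 1.38-fold to 1.78-fold. Tissue-type plasminogen activator (PLAT) was lower on the mean, with differences of -0.97 and -0.92 on the log2 scale, without passing the test, the serpin SERPINE2 overlapped between the cultures, and SERPINB2 was too dim to be tested. No probe of these 6 genes was higher in mixed culture. The 6 genes were taken by name from the array's own annotation, every non-control probe carrying one of the names being kept. This gave 10 probes of the 43603 on the array, and 6 of its 13466 different gene names.

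The plasminogen system turns the inactive plasma protein plasminogen into plasmin, a broad protease that cleaves fibrin, several matrix proteins and the precursors of other proteases and growth factors. Urokinase and tissue-type plasminogen activator are the serine proteases that make this cut, and the urokinase receptor uPAR, held in the membrane by a lipid anchor, gathers urokinase at the surface of migrating cells. Serpins are inhibitors that a target protease cleaves and is then trapped by. SERPINE2 (protease nexin-1) inhibits thrombin, urokinase and plasmin, SERPINB2 (plasminogen activator inhibitor type 2) inhibits urokinase and to a lesser extent tissue-type activator, and maspin has the serpin fold but is not known as a true protease inhibitor. In kidney tubules urokinase is secreted into urine, and in many carcinomas urokinase and uPAR are studied as parts of pericellular proteolysis and invasion.

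Both groups held MDCK-pTR GFP-RasV12 cells, a line made from Madin-Darby canine kidney (MDCK) epithelial cells of the dog in which tetracycline induces RasV12, an always active form of the Ras oncoprotein, tagged with GFP. All cells were given tetracycline for 24 h. In the group called alone (3 arrays) these cells were the whole culture, and in the group called mixed (3 arrays) they were grown among MDCK cells without RasV12, so the comparison asks how contact with normal neighbours goes with expression in the transformed cells. GFP-positive cells were then sorted and their total RNA was hybridised in 1 colour (Cy3) to a canine Agilent array. The labels of mixed replicates 1 and 3 give 10 MDCK cells per RasV12 cell, whereas that of mixed replicate 2 gives 100. The text on RNA extraction names cells that also carry a β-catenin mutant, whereas titles and methods give this set of cells without it. Whether the line is 1 clone, and whether replicates were separate cultures, is not given in the sources used here, so p-values measure the spread between these samples only. Each slide carried the arrays of 1 group only, so the slide cannot be told apart from the culture. In such sorted bulk samples fewer cells that make a transcript and less of it per cell cannot be told apart.

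The share of probes well above background ranged from 60.8% to 66.4% over the arrays, and the 75th percentile of intensity, to which each array was scaled, lay between 592 and 700 units. Of the epithelial and kidney tubule markers listed, 7 of 9 had a probe, and these 7, among them EPCAM, KRT18, CDH16 and PAX8, were well above background on all 6 arrays. Markers of both kinds were read by the brightest probe of each gene. Of 9 leukocyte, endothelial and fibroblast markers, 5 were well above background on all 6 arrays (PECAM1, KDR, PDGFRB, COL1A2 and LUM), CD3E was on 5, DCN on 1, and PTPRC and CDH5 were on none. All other probes of PECAM1, the other LUM probe, and a dimmer probe each of PDGFRB and COL1A2 were on 0 of 6 arrays. Further probes of KDR, PDGFRB and COL1A2 were on all 6. The summed signal of these 9 markers, in multiples of the array's 75th percentile, was 1.93 to 2.05 in cells alone and 2.19 to 2.26 in mixed culture, and of the 6 tested 0 passed limma's test after adjustment (2 at an unadjusted p under 0.05, and 1 by the methods' t-test). Their part in the results below was not tested.

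The probes printed here hold a reading frame with no internal stop codon and are shown because each reports a defined stretch of its transcript. All positions are in canFam3, as the array annotation gives them, and all probes run 5′ to 3′ along the transcript. The first PLAU probe covers bases on both sides of an intron, since its 60 bases span 410 bases of chromosome 4, at chr4:24332536-24332945 on the plus strand. The second PLAU probe lies at chr4:24331270-24331329 on the plus strand, and its capitals mark the lysine and isoleucine codons between which the single-chain proenzyme is cut into active urokinase.

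PLAU, first probe: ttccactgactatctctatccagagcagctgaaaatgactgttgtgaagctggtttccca

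PLAU, second probe: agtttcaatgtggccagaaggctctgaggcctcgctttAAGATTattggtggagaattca

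The PLAUR probe lies at chr1:111490389-111490448 on the plus strand. The PLAT probes, at chr16:23495222-23495281 and chr16:23495224-23495283 on the plus strand, share 58 of their 60 bases and are therefore not independent readings. The second ends in the stop codon, in capitals below.

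PLAUR: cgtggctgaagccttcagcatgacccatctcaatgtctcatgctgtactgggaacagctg

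PLAT, second probe: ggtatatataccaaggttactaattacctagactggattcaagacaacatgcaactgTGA

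SERPINB2 and SERPINB5 both lie on the minus strand of chromosome 1. The SERPINB2 probe is at chr1:13260847-13260906. The first SERPINB5 probe is at chr1:13579878-13579937 and the second at chr1:13568465-13568524, where it ends in the stop codon (capitals). The third SERPINB5 probe, at chr1:13568395-13568454, lies past that stop codon and is not printed, and neither is the SERPINE2 probe, at chr37:29699828-29699887 on the minus strand.

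SERPINB2: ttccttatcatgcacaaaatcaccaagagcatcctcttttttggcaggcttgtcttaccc

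SERPINB5, first probe: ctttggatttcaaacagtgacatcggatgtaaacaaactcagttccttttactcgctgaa

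SERPINB5, second probe: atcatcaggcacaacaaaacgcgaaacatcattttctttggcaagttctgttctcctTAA

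Across the whole array, 26534 probes stood well above background throughout 1 group or both and were tested with limma's moderated test (two-sided, Benjamini-Hochberg adjustment over these probes, threshold 0.05). Of these, 2978 differed between the cultures, which is 11.2% of those tested. In mixed culture 1459 were higher (5.5%) and 1519 were lower (5.72%). The values of the 3 arrays of one group did not overlap those of the other for 37.2% of tested probes. Against this background, 9 of the 10 member probes were tested, 6 were called lower and 0 higher, with 0 higher also at an unadjusted p under 0.05 by limma and by the methods' t-test. All 9 were lower on the mean, with a median difference of -0.68 against -0.00 over all tested probes, and 8 of the 9 did not overlap. The 10 probes belong to 6 genes and share targets, so they are not 10 separate observations.

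**Figure D1:**
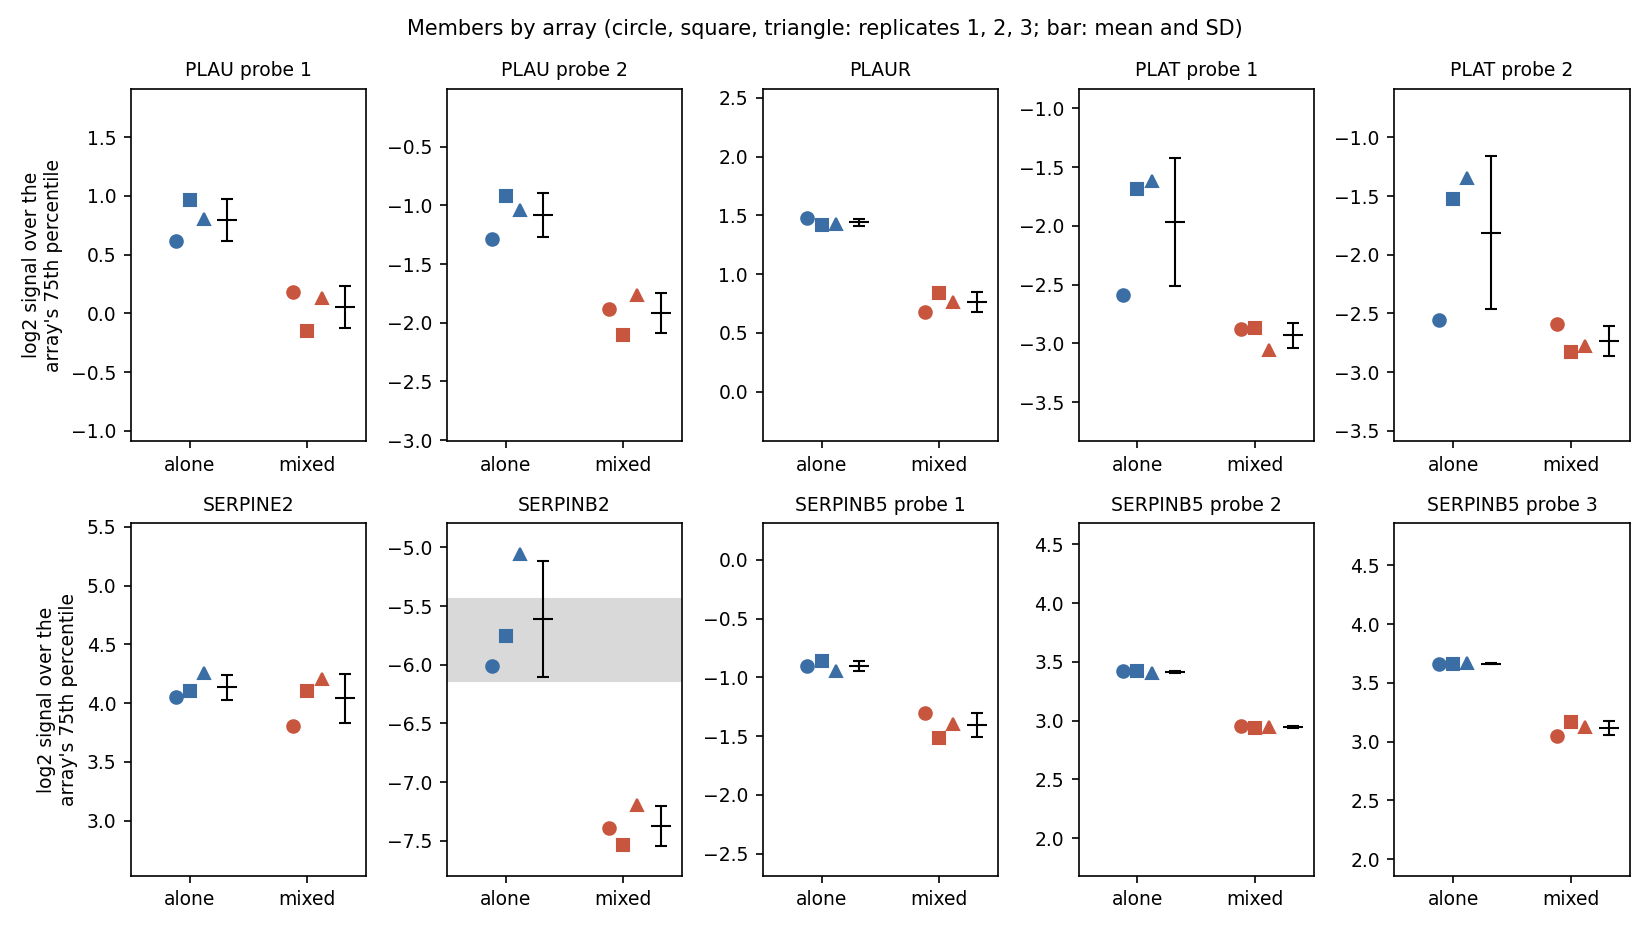
Signal of each member probe on each array, as log2 over the array's 75th percentile (y axis, the same span in every panel), for RasV12 cells alone (blue) and from mixed culture (red). Symbols are replicates 1 to 3, the bar is the mean with the SD, and the grey band for SERPINB2 spans the lowest signals that were well above background on the 6 arrays. Every panel but SERPINE2 has the 3 mixed values below the 3 values of cells alone, with alone replicate 1 of PLAT lying near the mixed arrays.

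Urokinase, the activator that uPAR binds, was measured by both PLAU probes. The first read 950, 1370 and 1124 units of intensity in alone replicates 1 to 3, and 717, 586 and 649 units in mixed replicates 1 to 3. Relative to the 75th percentile of each array this was 0.62, 0.97 and 0.80 alone and 0.18, -0.15 and 0.13 in mixed culture, on the log2 scale. All 3 mixed arrays lay below all 3 arrays of cells alone, and alone replicate 2 was the highest while mixed replicate 2 was the lowest. PLAU was 1.67-fold lower in mixed culture by this probe, a log2 difference of -0.74 ± 0.13 (SE, n = 3 per group, limma adjusted p = 0.0236). The second probe, over the activation site, read -1.29, -0.92 and -1.04 alone and -1.88, -2.10 and -1.77 in mixed culture. The same order of groups held without overlap, and the difference was -0.84 ± 0.13 (SE, limma adjusted p = 0.0193), or 1.78-fold. The PLAU probes share no more than 1 base at their ends, so the readings come from separate parts of the transcript. Of all tested probes, 1.69% had a lower difference than the first PLAU probe and 1.17% than the second.

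PLAUR, the urokinase receptor, had 1 probe, which read 1.48, 1.42 and 1.42 alone and 0.67, 0.84 and 0.76 in mixed culture on the log2 scale. The spread within each group was small, with an SD of 0.03 alone and 0.08 in mixed culture, and the highest mixed array lay 0.58 below the lowest array of cells alone. PLAUR was 1.60-fold lower in mixed culture, a log2 difference of -0.68 ± 0.07 (SE, n = 3 per group, limma adjusted p = 0.0131). In intensity the probe read 1724, 1871 and 1731 units alone against 1007, 1165 and 1003 units in mixed culture. Receptor and ligand transcripts were thus both lower by limma, and the 95% intervals of their differences overlapped (-1.05 to -0.43 for the first PLAU probe and -0.86 to -0.50 for PLAUR).

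PLAT encodes tissue-type plasminogen activator, known best for dissolving fibrin in blood vessels. Its first probe read -2.59, -1.69 and -1.61 alone and -2.87, -2.87 and -3.06 in mixed culture, and its second -2.56, -1.53 and -1.35 against -2.59, -2.83 and -2.78. Alone replicate 1 stood apart from alone replicates 2 and 3 and lay close to the mixed arrays, with a gap to the nearest mixed array of 0.28 by the first probe and 0.03 by the second. The groups did not overlap, but the differences of -0.97 ± 0.26 (SE, limma adjusted p = 0.0588) and -0.92 ± 0.30 (limma adjusted p = 0.0978) did not pass the threshold. Without alone replicate 1 the differences were -1.28 (adjusted p = 0.00386) and -1.29 (adjusted p = 0.00448), and both probes passed. Calls over all probes rose from 2978 to 7335 with the same removal. With all 6 arrays kept, the first probe also passed under quantile normalization (adjusted p = 0.0477).

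SERPINE2, the secreted protease nexin-1, read 4.05, 4.10 and 4.26 alone and 3.81, 4.11 and 4.21 in mixed culture. The groups overlapped, and the lowest value was mixed replicate 1. The difference was -0.10 ± 0.12 (SE, limma adjusted p = 0.626), with a 95% interval of -0.39 to 0.20 that included 0 and none of the differences of the called probes. Of all tested probes, 35.4% had a lower difference.

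SERPINB2, the inhibitor PAI-2, lay at the limit of detection. Its probe read 9.58, 13.0 and 19.3 units of intensity in alone replicates 1 to 3 and 3.77, 3.51 and 4.04 units in mixed replicates 1 to 3, while the lowest intensity that was well above background was between 9.15 and 14.6 units, depending on the array. It was well above background on 1 of 6 arrays, one of the cells alone, and on none of the mixed arrays, so it was not tested with the other probes and no fold is given. The 3 mixed arrays lay below the 3 arrays of cells alone. An exact permutation test over the 6 arrays (two-sided) gave p = 0.1, the smallest that 3 arrays against 3 allow.

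SERPINB5, maspin, was read by 3 probes, and all 3 fell. The first probe read -0.90, -0.86 and -0.95 alone and -1.31, -1.52 and -1.40 in mixed culture, a difference of -0.50 ± 0.08 (SE, n = 3 per group, limma adjusted p = 0.0205). The second read 3.42, 3.42 and 3.40 alone and 2.96, 2.94 and 2.95 in mixed culture. Its groups were tight, with SDs of 0.01 in both, and 0.45 apart at the nearest arrays, for a difference of -0.47 ± 0.06 (limma adjusted p = 0.0162). The third read 3.66, 3.66 and 3.67 alone and 3.05, 3.17 and 3.12 in mixed culture, a difference of -0.55 ± 0.07 (limma adjusted p = 0.0142). As folds these were 1.42, 1.38 and 1.46, and the 95% intervals of the log2 differences overlapped (-0.70 to -0.31, -0.62 to -0.32 and -0.71 to -0.38).

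**Figure D2:**
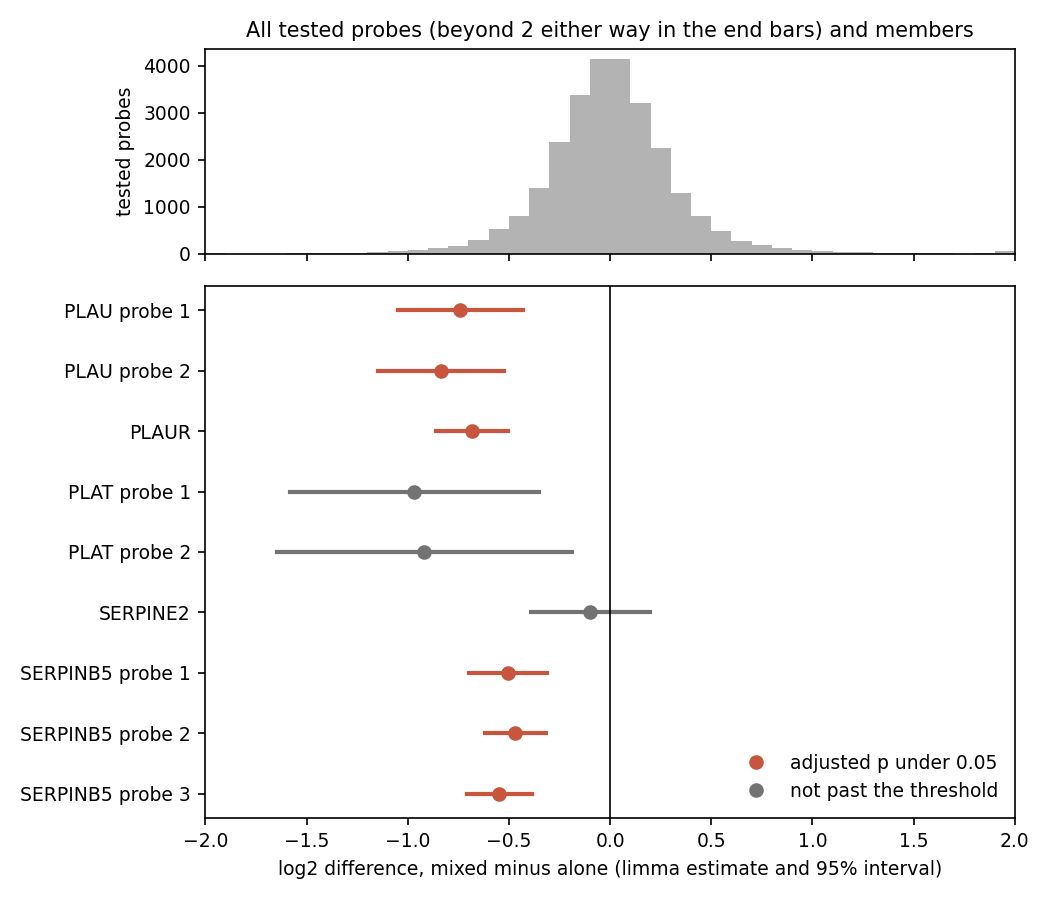
Log2 difference, mixed minus alone, of the 26534 tested probes (top, number of probes per 0.1, with differences beyond 2 either way gathered in the end bars) and of the 9 tested member probes (bottom, limma estimate with its 95% interval, red where the adjusted p was under 0.05). The 6 called probes of PLAU, PLAUR and SERPINB5 lie between -0.84 and -0.47, the intervals of PLAT are the widest, and that of SERPINE2 spans 0.

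The 6 calls kept their direction under all 15 other settings that were run, whereas the calls themselves changed with the arrays and probes used. Settings that changed only the test or the set of probes tested could not alter a difference. As the groups of these 6 probes did not overlap, leaving out 1 array could hardly reverse one either. With the unfiltered probe set, and without alone replicate 2, alone replicate 3, mixed replicate 2 or mixed replicate 3, none of the 10 probes passed by limma with adjustment (0 called), with adjusted p-values of the 6 between 0.0668 and 0.0968 and differences between -0.91 and -0.45. At an unadjusted p under 0.05, 7 member probes were lower after each of these 4 removals and 9 without the filter, SERPINB2 being 1 of the 9. How many of all probes had such a p in these settings is not given here. With all 6 arrays, 7315 of 26534 tested probes had one by the methods' t-test. Over all probes the same 4 removals left 24, 7, 9 and 12 calls in that order, and 12 without the filter. Without alone replicate 1 there were 8 member calls and 7335 over all probes, and without mixed replicate 1 there were 6 and 2009. Mixed replicate 2, the array whose label gives 100 MDCK cells per RasV12 cell, was the lowest of the mixed arrays for both PLAU probes and the highest for PLAUR.

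**Figure D3:**
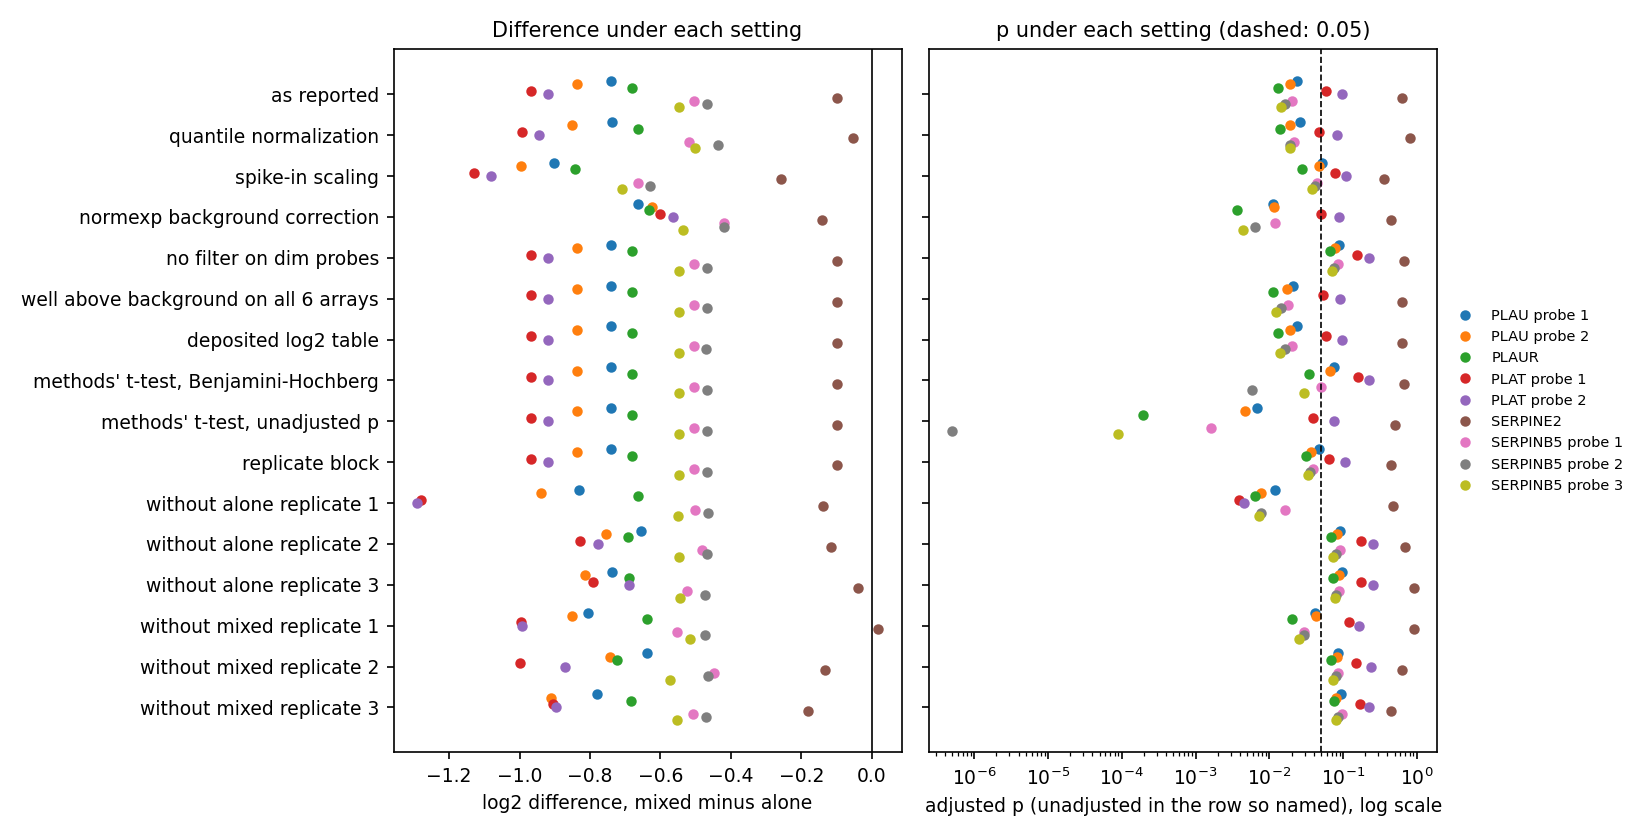
Log2 difference, mixed minus alone (left), and p (right, log scale, dashed line at 0.05) of the 9 tested member probes as reported and under 15 other settings, 1 colour per probe. The probes of PLAU, PLAUR, PLAT and SERPINB5 stay below 0 on the left in all settings, SERPINE2 crosses 0 without mixed replicate 1, and on the right all 6 called probes miss the line in 5 settings.

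The other genes of the plasminogen system were taken from lists of 79 genes, 63 of which had a probe under that name and 44 of which were bright enough to be tested, with the brightest probe standing for a gene. Of these 44, 3 were higher, 5 lower and 36 not called, with 20 positive and 24 negative differences and a median of -0.08. By group, the called genes were integrins that pair with uPAR and transcription factors known to act at the PLAU and PLAUR genes. Each of the remaining groups had 0 calls by limma with this choice of probe. At an unadjusted p under 0.05, 18 of the 44 passed by limma and 18 by the methods' t-test. Over all 26534 tested probes, 7315 passed by the methods' t-test without adjustment, and 11.2% by limma with it. How many of all probes had an unadjusted p under 0.05 by limma is not given here. The unadjusted limma counts, here and by group below, therefore have no matching share. Those of the methods' t-test are to be read beside 7315 of 26534, and the 11.2% belongs with the adjusted calls only. With the replicate number as a block, 5 were higher and 4 lower, and with the mean over the probes of a gene, 4 were higher and 6 lower.

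Plasminogen itself (PLG) was well above background on 0 of 6 arrays in these cells. Among proteases that activate plasminogen or pro-urokinase, 0 of 7 tested genes were called by limma (2 at an unadjusted p under 0.05, and 2 by the methods' t-test). Matriptase (ST14), a membrane protease that activates pro-urokinase, read -2.91, -2.84 and -2.88 alone and -2.25, -2.63 and -2.53 in mixed culture, without overlap, for a difference of 0.40 ± 0.11 (SE, limma adjusted p = 0.0598).

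Among the other inhibitors of plasmin, its activators or related proteases, 0 of 4 tested genes were called by limma (2 at an unadjusted p under 0.05, and 2 by the methods' t-test), with a median difference of -0.16. With the replicate number as a block, SERPINF2, the plasmin inhibitor α2-antiplasmin, was called higher (0.45, adjusted p = 0.0379). Of the other clade B serpins, relatives of SERPINB2 and SERPINB5, 0 of 2 were called (0 at an unadjusted p under 0.05 by limma and 1 by the methods' t-test).

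At the cell surface, ANXA2, which with its partner protein holds plasminogen and tissue-type activator, read 7.96, 7.86 and 7.91 alone and 7.73, 7.59 and 7.66 in mixed culture, a difference of -0.25 ± 0.07 (SE, limma adjusted p = 0.0763). LRP1, the receptor that clears inhibitor-bound urokinase, differed by 0.17 ± 0.11 (limma adjusted p = 0.357) with overlapping groups. Vitronectin (VTN), a matrix ligand of uPAR, was well above background on 0 of 6 arrays. By the brightest probes 0 of 7 tested genes of this group were called by limma (3 at an unadjusted p under 0.05, and 3 by the methods' t-test). All 3 probes of IGF2R, a receptor that binds uPAR and plasminogen, were lower on the mean, and 1 that was not the brightest was called (-0.46, limma adjusted p = 0.0193). The plasminogen receptors S100A10 and ENO1, the matriptase inhibitor SPINT1 and the uPAR-associated receptor MRC2 had no probe under those names and so could not be analysed here.

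Of the integrins that pair with uPAR, 3 of 7 tested genes were lower and 0 higher by their brightest probes, with a median difference of -0.38 and 5 of 7 negative. ITGB1, the β chain that many matrix receptors share, read 5.14, 5.00 and 5.13 alone and 4.58, 4.49 and 4.45 in mixed culture, a difference of -0.59 ± 0.08 (SE, limma adjusted p = 0.0160). ITGA5, its partner in the fibronectin receptor, read -2.20, -2.43 and -2.29 alone and -2.75, -2.83 and -2.96 in mixed culture, a difference of -0.54 ± 0.09 (limma adjusted p = 0.0243). In both genes the groups were clearly separate. ITGB3, a chain of the vitronectin receptor, differed by -0.44 ± 0.10 (limma adjusted p = 0.0371), and lost the call with the replicate block (adjusted p = 0.0657). ITGAV, which pairs with ITGB3, overlapped between the groups and differed by -0.13 ± 0.10 (limma adjusted p = 0.437). ITGB5, another partner of ITGAV, went the other way by all 4 of its probes. Its brightest differed by 0.44 (limma adjusted p = 0.0828) and was not called, whereas 2 of the others were called higher, with differences of 0.48 (limma adjusted p = 0.0259) and 0.55 (limma adjusted p = 0.0324).

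Downstream of plasmin and the activators, 0 of 7 tested genes were called by limma from their brightest probes, and 0 of these probes had an unadjusted p under 0.05 by limma or by the methods' t-test. Dimmer probes of FN1 (-0.42 and -0.43) and PDGFD (0.26) had limma p-values under 0.05 before adjustment and did not pass after it. MET, the receptor of hepatocyte growth factor, whose precursor urokinase can cleave, differed by -0.26 ± 0.13 (SE, limma adjusted p = 0.221), and its second probe by 0.03. F2RL1, a receptor that proteases switch on by cutting it, differed by 0.08 ± 0.10 (limma adjusted p = 0.640) and turned negative under spike-in scaling and without mixed replicate 1.

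All 10 transcription factors known to act at the PLAU and PLAUR genes were tested, and 3 were higher and 2 lower. FOSL1 (Fra-1), an AP-1 subunit that rises with lasting ERK signalling, read -1.16, -0.96 and -1.14 alone and -1.57, -1.66 and -1.61 in mixed culture, a difference of -0.52 ± 0.08 (SE, limma adjusted p = 0.0193). ETS1, the founding ETS factor, read 4.06, 3.99 and 3.88 alone and 3.57, 3.32 and 3.24 in mixed culture, a difference of -0.60 ± 0.11 (limma adjusted p = 0.0246). Both were lower in every mixed array than in any array of cells alone. EGR1, an immediate early zinc-finger factor, read 2.42, 2.41 and 2.35 alone and averaged 3.16 ± 0.17 (SD, n = 3) in mixed culture, each mixed array lying above each array of cells alone, a difference of 0.77 ± 0.10 (limma adjusted p = 0.0157). FOS, the immediate early AP-1 subunit, differed by 0.67 ± 0.15 (limma adjusted p = 0.0393) and JUND, another AP-1 subunit, by 0.46 ± 0.09 (limma adjusted p = 0.0305). The called AP-1 subunits were thus lower in 1 case and higher in 2. The further probes of EGR1, ETS1, ITGB1 and ITGB3 differed in the same direction as the brightest. Of the settings run, ETS2 was called higher only with the replicate block (0.50, adjusted p = 0.0446 against 0.155 without it), and its other probes differed by -0.16 and -0.20.

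The genes listed as Ras-MAPK output were read beside the members, since the cells were sorted by the GFP that RasV12 carries. Of 18 listed genes 12 had a probe and were tested, of which 0 were higher and 3 lower, with 9 negative and 3 positive differences and a median of -0.34. The 3 were EREG (epiregulin, an EGF receptor ligand) at -0.72, EPHA2 (an ephrin receptor) at -0.71 and CCND1 (cyclin D1) at -0.59. The immediate early genes EGR1 and FOS, called higher above (0.77 and 0.67), were counted among the transcription factors and not in this list. So was FOSL1, called lower (-0.52). The counts here therefore depend on how the lists were drawn. The summed signal of the 12 genes was 126 to 130 times the 75th percentile alone and 103 to 117 times in mixed culture. Most of this sum came from DUSP6, the brightest of them, at 6.44 to 6.52 alone and 6.16 to 6.44 in mixed culture on the log2 scale. DUSP6 itself was not called (-0.19, limma adjusted p = 0.205), so the sum does not describe the 12 genes evenly. The 9 listed genes that were tested and not called included SPRED1, SPRY2 and ETV5, with positive differences of 0.39, 0.28 and 0.10. The part of the Ras-MAPK output genes in the results for PLAU, PLAUR and SERPINB5 was not tested.

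**Figure D4:**
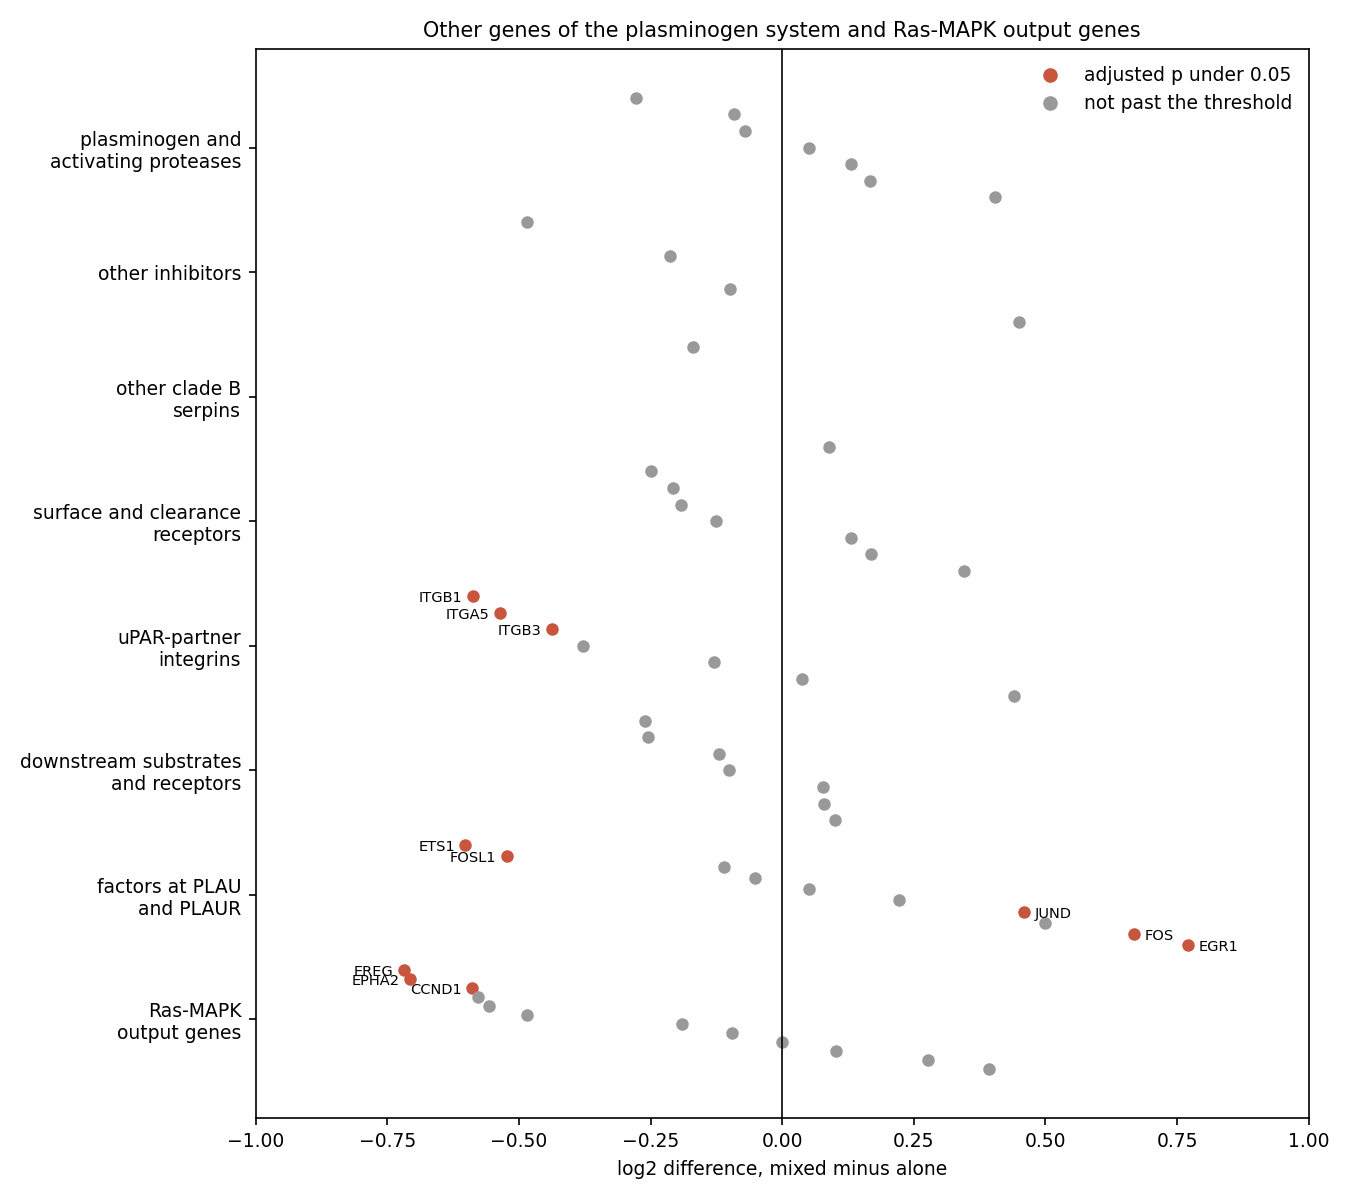
Log2 difference, mixed minus alone, of the 44 tested genes of the plasminogen system by group and of the 12 Ras-MAPK output genes, 1 point per gene, red where the limma adjusted p was under 0.05. The called integrins ITGB1, ITGA5 and ITGB3 lie between -0.59 and -0.44, and the transcription factors have called genes on both sides of 0.

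The profile of each member over the 6 arrays, centred on its own mean, was set beside that of 9633 other named genes well above background on all arrays, and the 3 with the smallest root mean square difference are given. For PLAU, by its first probe, these were EPHA2, PROCR (the endothelial protein C receptor) and KCNIP2, with root mean square differences of 0.08 on the log2 scale for all 3. For PLAUR they were TWIST2 (0.05), ZFAND1 (0.06) and EREG (0.06). EPHA2 and EREG are also among the Ras-MAPK output genes tested above, whereas none of the other genes given here for any member is. A gene that falls by a like amount in mixed culture has a like profile by construction. Any link of these genes to PLAU and PLAUR was not tested. For PLAT, by its second probe, they were HSP70 (0.08), NAPB (0.13) and KIAA0513 (0.15), in all of which alone replicate 1 was the lowest of the cells alone. For SERPINE2 they were LOX (0.04), PLA2G12A (0.04) and FARSA (0.05), and for SERPINB5, by its probe past the stop codon, CLASRP (0.02), AP1S3 (0.02) and BLVRA (0.03). These are descriptions over 6 arrays on 2 slides.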

How the data were processed

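RNA of sorted GFP-positive cells was measured on 6 one-colour arrays, 3 of RasV12 cells alone and 3 of mixed culture, grouped by the titles. The authors deposited, for each array, scanner output from Agilent Feature Extraction (version 10.10.1.1 in the file headers) with an intensity per spot, background-corrected and detrended. The authors also deposited a table of log2 values, which matched the log2 processed signal minus about the 75th percentile of each array.

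Control and outlier-flagged spots were left out, spots of a probe averaged, and log2 values taken minus each array's 75th percentile. Names came from the array annotation for 21751 probes and from a RefSeq table for 7, and 21845 kept an accession. Probe coordinates and sequences are those of the array annotation (canFam3). A probe was tested if well above background on all arrays of a group, with limma 3.58.1 in R 4.3.3 (lmFit and eBayes, two-sided, Benjamini-Hochberg, threshold 0.05). The procedure was tested on simulated data. Tables and plots used Python 3.11.15, pandas 2.3.3, numpy 2.4.6 and matplotlib 3.10.9. The number of arrays limits the precision.

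The members and gene lists were chosen with earlier results of these data known, and 1 listed gene is left out of the lists and not reported here. The rule for named genes took all member probes, each listed pathway gene past the threshold, a fixed set of further genes of the system whether past it or not, and the 3 profiles most like each member. Alternatives were quantile normalization, spike-in scaling, normexp for the background, testing all probes, testing only those well above background on all 6 arrays, the deposited table, the unpaired t-test named in the study's methods (the methods' t-test), a replicate block, the mean over probes (pathway genes) and leaving out each array.

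After removing group means, arrays sharing a replicate number correlated across 26528 probes at 0.349, 0.162 and 0.296, each over 0.1, so the numbers may pair the samples. For unlike numbers the range was -0.329 to 0.238, the highest (alone replicate 2 with mixed replicate 3) lying above the 0.162 of replicates 2. The tests as reported were unpaired, and the pairing entered only as the replicate block among the alternatives. In both groups the number is also the position on the slide.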

Additional observations from a re-analysis of the deposited data

How the results depend on the processing

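The 6 called member probes were lower in mixed culture under all 15 alternatives. Those that changed only the test or the set of probes tested left the differences as they were. With groups that did not overlap, leaving out 1 array could do little to the sign of a difference. The count of member probes called lower, 6 as reported, was 7 with quantile normalization, 5 with spike-in scaling, 6 with normexp, 0 without a filter, 3 by the methods' t-test with adjustment, 7 by its unadjusted p and 6 with the replicate block, and 0 to 8 when 1 array was left out. Spike-in scaling shifted the median of all probes by -0.16. Of pathway genes, 3 higher and 5 lower as reported, 1 and 3 were called with spike-in scaling, 5 and 7 with normexp, 0 and 0 without a filter, 1 and 2 by the methods' t-test with adjustment, 6 and 12 by its unadjusted p, and 5 and 4 with the replicate block. Leaving out 1 array gave 0 to 5 higher and 0 to 9 lower. The block added SERPINF2 (0.45, adjusted p = 0.0379) and ETS2 (0.50, adjusted p = 0.0446), both named after their values were seen (as are ITGB5, IGF2R, FN1 and PDGFD above), lost ITGB3 and changed no other call of a member or pathway gene. With 1 array left out SERPINE2 ranged from -0.181 to 0.0195, turning positive without mixed replicate 1, and F2RL1 from -0.0197 to 0.133, turning negative without the same array and also with spike-in scaling (-0.0835). Over all probes, 2978 as reported, 995 were called with spike-in scaling, 3977 with normexp, 12 without a filter, 828 by the adjusted t-test and 7315 by its unadjusted p. The cause of these changes was not tested. Slide could not be fitted as a block, as it coincides with the groups. Signal over background limits SERPINB2.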
